A study of Mus musculus with 6 samples.

Results

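The 41 genes described here encode enzymes and transporters that burn fatty acids in mitochondria and peroxisomes or that make and use ketone bodies. They were taken by gene symbol from the 54777 genes of the liver table, and all 41 were among the 16547 genes whose mean reached 0.2 FPKM (fragments per kilobase of gene, scaled to library size). Of the 41, 22 encode proteins of mitochondria, 11 proteins of peroxisomes, and 8 proteins found in several compartments. RNA-seq was done on whole livers of 3 Wtap-HKO and 3 Wtapflox/flox mice, all C57BL/6 males aged 8 weeks on normal chow. Wtap-HKO mice carry the genotype Wtapflox/flox Alb-Cre+/-, so that Cre driven by the albumin promoter removes the floxed exon 4 of Wtap in hepatocytes. Whether the other liver cells were spared cannot be read from whole-liver values. Wtapflox/flox mice carry the same floxed alleles without Cre, so the floxed allele is common to both groups. Wtap encodes a subunit of the nuclear complex that methylates adenosines in RNA, and the comparison asks how its loss from hepatocytes goes together with the expression of the oxidation machinery.

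Long-chain fatty acids are first joined to coenzyme A by acyl-CoA synthetases. They then cross into mitochondria as carnitine esters, for which CPT1A is the gate that malonyl-CoA closes, and are shortened there by rounds of dehydrogenation, hydration, dehydrogenation and thiolysis. Peroxisomes run a parallel cycle with their own bifunctional enzymes and thiolases on very long, branched and dicarboxylic acids, and the nuclear receptor PPARA induces many genes of both cycles in the liver. Acetyl-CoA that the liver does not burn leaves it as ketone bodies, which other organs use through OXCT1.

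The libraries held 16254033 to 18510477 reads on genes in Wtap-HKO livers and 15559250 to 16712433 in Wtapflox/flox livers, as rebuilt from the deposited values. The deposited FPKM carry a scaling between libraries, so the sum over all genes in Wtap-HKO livers was 0.666 times that in Wtapflox/flox livers. Changes on the deposited scale are therefore set beside those on the TPM scale, where every library has the same sum and the median log2 fold change of all genes was 0.56, against 0.0054 as deposited. Wtap itself was at 5.86, 6.45 and 5.77 FPKM in Wtap-HKO livers, against 5.31, 5.94 and 5.56 FPKM in Wtapflox/flox livers (exact permutation test, two-sided p = 0.3, where 0.1 is the smallest possible), and was called higher on the TPM scale (0.68, limma adjusted p = 0.00150). A value over the whole gene does not test the loss of 1 exon, so it neither supports nor contradicts the labels. Of the 12 hepatocyte markers 9 fell and 0 rose, with a summed level of 33567 to 37904 FPKM in Wtap-HKO livers and 66523 to 73348 FPKM in Wtapflox/flox livers. On the TPM scale 2 of these markers were lower and 2 higher. By contrast, 12 of 14 macrophage, 5 of 5 neutrophil, 8 of 10 stellate and fibroblast and 4 of 6 cholangiocyte markers rose. Fewer rose among endothelial (3 of 8) and lymphocyte markers (1 of 9). Over all genes tested, 20.7% were called lower and 19.5% higher. On the TPM scale, where 48.8% of all genes were higher, the counts of higher markers were 14, 5, 10, 5, 8 and 4 in that order. In whole liver, fewer hepatocytes and less RNA per hepatocyte cannot be told apart, and the part of this shift in the changes below was not tested.

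Most oxidation genes were lower in Wtap-HKO livers on the deposited scale, while 1 peroxisomal gene, Ehhadh, rose. Of the 41 genes, 26 fell, 3 rose (Ehhadh, Oxct1 and Acsl4) and 12 did not pass the test, which was limma on log2(FPKM + 0.2) with Benjamini-Hochberg adjustment over all genes tested. The background was 20.7% of all genes tested called lower and 19.5% called higher. These genes are abundant, and abundance itself went with lower calls. Among the 445 genes of the whole table that averaged 100 FPKM or more, 59.1% were called lower, with a median log2 fold change of -0.64, while 12 of the 16 oxidation genes at that level fell, with a median of -0.79. Among the 445 genes at 50 to 100 FPKM, 52.4% were called lower (median -0.45), and 8 of 13 oxidation genes fell (median -0.35). At 10 to 50 FPKM, 39.1% of 2823 genes were called lower (median -0.23), and 5 of 9 oxidation genes fell (median -0.76). On the TPM scale 12 of the 41 were lower and 13 higher, with a background of 6.02% lower and 48.8% higher, and the median over the 41 was 0.022 against 0.56 over all genes. The 12 genes called lower there were also lower as deposited, and the 3 genes that rose were higher on both scales. Values of both groups did not overlap for 32 of the 41 genes, against 54.2% of all genes tested. No p-value is attached to the 41 as a list.

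**Figure D1:**
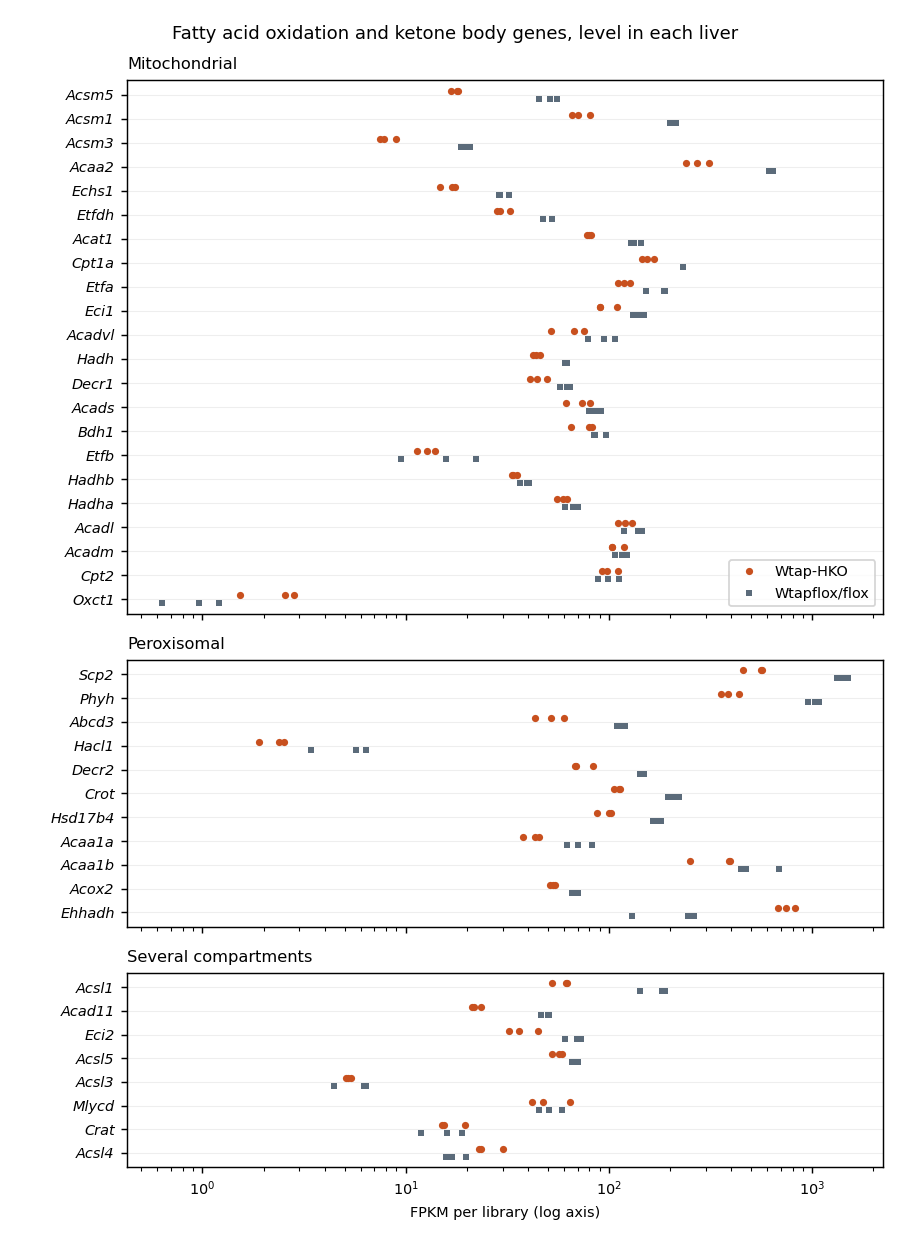
FPKM of the 41 genes in each liver on a log axis, with Wtap-HKO (circles) above Wtapflox/flox (squares) in every row and genes ordered by fold change inside each class. Among peroxisomal genes all but Ehhadh lie to the left in Wtap-HKO livers, and Ehhadh lies at 677 to 819.8 FPKM against 130.1 to 262 FPKM.

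Acyl-CoA synthetases of long chains differed in direction. Acsl1, the main long-chain acyl-CoA synthetase of liver, was at 61.5, 61.9 and 52.4 FPKM in Wtap-HKO livers, against 143, 182 and 189 FPKM in Wtapflox/flox livers. The groups were far apart, with the Wtap-HKO mean at 34.2% of the Wtapflox/flox mean (log2 fold change -1.54 ± 0.14 SE, limma adjusted p = 4.57e-04, n = 3 each throughout). Acsl4, which prefers arachidonic acid, was at 22.8, 23.4 and 30.0 FPKM in Wtap-HKO livers and at 15.8, 16.8 and 19.9 FPKM in Wtapflox/flox livers. Every Wtap-HKO value was the higher, by 1.45-fold between means (0.53 ± 0.14, limma adjusted p = 0.0237). That call was lost when Wtap-HKO replicate 3 or Wtapflox/flox replicates 1 or 2 were left out, with limma adjusted p of 0.0629, 0.0778 and 0.0710. Most markers of macrophages, neutrophils, stellate cells and fibroblasts, and cholangiocytes given above rose in the same livers. The part of these cells in the Acsl4 difference was not tested.

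Acsl5 depends on the scale. It had 52.5, 58.5 and 56.7 FPKM in Wtap-HKO livers, against 70.4, 69.7 and 65.5 FPKM in Wtapflox/flox livers, with no overlap. The gene was called lower as deposited (-0.29 ± 0.083, limma adjusted p = 0.0296) and higher on the TPM scale (0.29, limma adjusted p = 0.0141), and the deposited call was lost without Wtap-HKO replicates 1 or 3 and without Wtapflox/flox replicates 1 or 2, at limma adjusted p of 0.0818, 0.0722, 0.0968 and 0.0899. Acsl3, an enzyme of the endoplasmic reticulum and lipid droplets, overlapped between the groups (-0.098 ± 0.15, limma adjusted p = 0.630) and was called higher on the TPM scale (0.48).

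The medium-chain synthetases of the mitochondrial matrix all fell, on both scales. Acsm1 was at 80.3, 70.6 and 65.8 FPKM in Wtap-HKO livers, against 213, 200.2 and 205 FPKM in Wtapflox/flox livers. Acsm5 was at 18.2, 17.9 and 16.6 FPKM in Wtap-HKO livers, against 55.3, 45.4 and 51.4 FPKM in Wtapflox/flox livers. Acsm3 was at 8.93, 7.45 and 7.81 FPKM in Wtap-HKO livers, against 20.0, 18.6 and 20.7 FPKM in Wtapflox/flox livers. None of the 3 genes overlapped between groups, and their log2 fold changes were -1.51 ± 0.10, -1.51 ± 0.10 and -1.27 ± 0.10 in that order (limma adjusted p of 2.27e-04, 2.22e-04 and 3.24e-04). On the TPM scale they were -0.93, -0.93 and -0.70. Of the Acsm3 exon bases, 39.7% also lie in exons of Eri2 on the other strand, and the strand setting of the read counting is not given in the sources used here.

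Carnitine esters are made and split by 4 of the enzymes. Cpt1a lies at chr19:3323301-3385732 (plus strand, GRCm38.p6) and encodes the outer-membrane transferase that commits long chains to mitochondria. It was at 167, 146 and 154 FPKM in Wtap-HKO livers, against 231.1, 231.1 and 231.2 FPKM in Wtapflox/flox livers. The groups did not overlap and the Wtap-HKO mean was 67.4% of the Wtapflox/flox mean (-0.57 ± 0.090, limma adjusted p = 0.00335), whereas on the TPM scale the difference was 0.016 ± 0.11 (limma adjusted p = 0.908). Cpt2, the matrix partner of Cpt1a, overlapped fully (0.0095 ± 0.12, limma adjusted p = 0.958). Crot, which makes the medium-chain carnitine esters that leave peroxisomes, fell on both scales, with 106 to 113 FPKM in Wtap-HKO livers and 195 to 219.99 FPKM in Wtapflox/flox livers (-0.91 ± 0.089 as deposited, -0.33 on the TPM scale). Crat, the short-chain transferase, and Mlycd, which removes malonyl-CoA, overlapped between groups (0.11 ± 0.19 and -0.029 ± 0.18). Cpt2, Crat and Mlycd were called higher on the TPM scale, at 0.60, 0.70 and 0.56, close to the median of all genes there.

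The first step of the mitochondrial cycle is shared by acyl-CoA dehydrogenases of different chain length. Acadm, the medium-chain enzyme, was at 103, 118 and 104 FPKM in Wtap-HKO livers, against 108, 123 and 116 FPKM in Wtapflox/flox livers. Acadl, the long-chain enzyme, was at 111, 130.5 and 119.6 FPKM in Wtap-HKO livers, against 118, 139 and 145 FPKM in Wtapflox/flox livers. Both overlapped between groups and neither passed the test as deposited (Acadm -0.094 ± 0.099, limma adjusted p = 0.480, and Acadl -0.15 ± 0.11, limma adjusted p = 0.328). The short-chain gene Acads did not pass either (-0.25 ± 0.12, limma adjusted p = 0.138), and all 3 were called higher on the TPM scale, at 0.49, 0.44 and 0.33. Acadvl, the very-long-chain enzyme of the inner membrane, was called lower as deposited (-0.54 ± 0.17, limma adjusted p = 0.0441), but not once Wtap-HKO replicates 1 or 3 or Wtapflox/flox replicates 1 or 2 were left out, at limma adjusted p of 0.0800, 0.115, 0.110 and 0.128, and 42.9% of its exon bases lie in exons of Dvl2 on the other strand. Acad11 fell on both scales, to 21.2 to 23.5 FPKM in Wtap-HKO livers against 46.5 to 50.4 FPKM in Wtapflox/flox livers (-1.15 ± 0.083, limma adjusted p = 2.81e-04).

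Electrons from these dehydrogenases pass through the flavoprotein ETF to ubiquinone. Its subunit gene Etfa and the gene of its oxidoreductase, Etfdh, fell as deposited (-0.57 ± 0.12 and -0.76 ± 0.094, limma adjusted p = 0.00908 and 0.00136) and were not called on the TPM scale. Etfb ranged from 11.4 to 14.01 FPKM in Wtap-HKO livers and from 9.43 to 22.1 FPKM in Wtapflox/flox livers, so that its groups overlapped (-0.23 ± 0.29). Of the Etfb exon bases, 58.2% are shared with other annotated genes, so reads could have been split or dropped there.

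Hydration, dehydrogenation and thiolysis in mitochondria are done by the trifunctional protein, whose genes did not pass the test as deposited, and by separate enzymes, whose genes fell. Hadha, its large subunit, was at 59.1, 62.2 and 55.3 FPKM in Wtap-HKO livers, against 60.7, 70.0 and 66.3 FPKM in Wtapflox/flox livers. These values overlap (-0.16 ± 0.092, limma adjusted p = 0.218), and the small subunit gene Hadhb gave -0.18 ± 0.080 (limma adjusted p = 0.111) with no overlap, while both were called higher on the TPM scale, at 0.43 and 0.40. Of the 100-base windows of Hadhb transcripts, 14.8% also occur in Gm13910. Acaa2, the mitochondrial thiolase and the most abundant mitochondrial gene of the 41, was at 312, 272 and 240.5 FPKM in Wtap-HKO livers, against 638, 642 and 613 FPKM in Wtapflox/flox livers. The Wtap-HKO values were all under the lowest Wtapflox/flox value (-1.21 ± 0.12, limma adjusted p = 7.35e-04, and -0.62 on the TPM scale). Echs1, the short-chain enoyl-CoA hydratase, fell on both scales (-0.87 ± 0.10 and -0.28), and Hadh, the short-chain hydroxyacyl-CoA dehydrogenase, fell as deposited alone (-0.48 ± 0.075, limma adjusted p = 0.00313).

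Double bonds are handled by isomerases and reductases, and all 4 of these genes fell as deposited. Eci1, the mitochondrial isomerase, and Decr1, the mitochondrial dienoyl-CoA reductase, gave -0.54 ± 0.11 and -0.45 ± 0.10 (limma adjusted p = 0.00942 and 0.0128), without a call on the TPM scale. Eci2, an isomerase of both organelles, gave -0.86 ± 0.14 (limma adjusted p = 0.00383) and -0.27 with no call on the TPM scale. Decr2, the peroxisomal reductase, was lower on both scales, with 68.2 to 83.4 FPKM in Wtap-HKO livers and 143 to 149 FPKM in Wtapflox/flox livers (-0.98 ± 0.10 as deposited, limma adjusted p = 7.99e-04, and -0.40 on the TPM scale).

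Peroxisomal beta-oxidation held the largest rise among the 41. Ehhadh (chr16:21761287-21787807, minus strand), the L-bifunctional enzyme that hydrates and dehydrogenates in peroxisomes, was at 677, 819.8 and 741 FPKM in Wtap-HKO livers, against 130.1, 246 and 262 FPKM in Wtapflox/flox livers. Each Wtap-HKO value was more than the highest Wtapflox/flox value, and Wtapflox/flox replicate 1 was the lowest of the 6. The means were 746 ± 71.4 and 212 ± 71.8 FPKM (SD), a 3.51-fold difference (log2 fold change 1.87 ± 0.27, limma adjusted p = 0.00236, and 2.46 on the TPM scale). With any 1 library left out the log2 fold change was 1.55 to 2.06 and the call held, the lowest value being that without Wtapflox/flox replicate 1. Ranked by mean level among the 41, Ehhadh was 1st in Wtap-HKO livers, where its range lay above that of Scp2, and 6th in Wtapflox/flox livers, where its range included that of Cpt1a.

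Hsd17b4, the D-bifunctional enzyme that runs the same steps on other stereoisomers, went down: 87.3 to 102 FPKM in Wtap-HKO livers, against 165 to 180.1 FPKM in Wtapflox/flox livers (-0.83 ± 0.10, limma adjusted p = 0.00109, and -0.24 with no call on the TPM scale). Acox2, an oxidase of branched chains and bile acid precursors, gave -0.35 ± 0.076 as deposited (limma adjusted p = 0.0106) and 0.23 with no call on the TPM scale. Scp2, whose products include a thiolase and a lipid carrier, was the most abundant of the 41 in Wtapflox/flox livers. It was at 567, 558 and 454 FPKM in Wtap-HKO livers, against 1401, 1506 and 1323 FPKM in Wtapflox/flox livers. The groups were far from overlapping (-1.43 ± 0.14, limma adjusted p = 6.26e-04, and -0.84 on the TPM scale), although 21.8% of the 100-base windows of its transcripts recur exactly in the pseudogene Scp2-ps2.

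The 3-ketoacyl-CoA thiolase genes Acaa1a and Acaa1b share sequence, so their reads may be partly mixed: 19.3% of 100-base windows of Acaa1b also occur in Acaa1a. Acaa1a was at 43.2, 45.1 and 37.9 FPKM in Wtap-HKO livers, against 70.8, 82.5 and 61.9 FPKM in Wtapflox/flox livers. Acaa1b was at 394, 390.5 and 251 FPKM in Wtap-HKO livers, against 446, 685 and 471 FPKM in Wtapflox/flox livers. Neither gene overlapped between groups, and Acaa1a fell (-0.76 ± 0.13, limma adjusted p = 0.00437, and -0.18 with no call on the TPM scale) while Acaa1b, with its wider spread, did not pass (-0.63 ± 0.24, limma adjusted p = 0.0745). Acaa1b did pass, as lower, in limma voom on the rebuilt reads (adjusted p = 0.0373) and with protein-coding genes alone (limma adjusted p = 0.0481).

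Alpha-oxidation and import into peroxisomes fell as well. Phyh, which hydroxylates phytanoyl-CoA, was at 436, 383 and 357 FPKM in Wtap-HKO livers, against 1033, 954 and 1079 FPKM in Wtapflox/flox livers. Abcd3, the peroxisomal importer PMP70, was at 60.0, 52.0 and 43.3 FPKM in Wtap-HKO livers, against 109, 119.9 and 117 FPKM in Wtapflox/flox livers. Both were without overlap and lower on both scales (Phyh -1.38 ± 0.13 and -0.80, Abcd3 -1.16 ± 0.13 and -0.58, with limma adjusted p = 4.86e-04 and 9.42e-04 as deposited). Hacl1, the lyase that follows Phyh, had 1.89 to 2.52 FPKM in Wtap-HKO livers and 3.41 to 6.40 FPKM in Wtapflox/flox livers (-1.09 ± 0.24, limma adjusted p = 0.0122), was not called on the TPM scale, and shares 33.3% of its exon bases with Gm49387 and Btd.

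Ketone body genes did not move together. Acat1, the mitochondrial acetoacetyl-CoA thiolase, was at 78.3, 80.1 and 81.2 FPKM in Wtap-HKO livers, against 133, 128 and 143 FPKM in Wtapflox/flox livers. It fell as deposited (-0.75 ± 0.082, limma adjusted p = 8.87e-04), with tight groups that did not overlap, and was not called on the TPM scale (-0.17). Bdh1, which interconverts acetoacetate and beta-hydroxybutyrate, was at 82.3, 65.3 and 79.5 FPKM in Wtap-HKO livers, against 84.8, 96.9 and 85.6 FPKM in Wtapflox/flox livers. The Bdh1 groups came close without overlap and the test was not passed (-0.24 ± 0.12, limma adjusted p = 0.146). Of the Bdh1 exon bases, 13.7% also lie in exons of Gm15743 on the other strand.

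Oxct1 (chr15:4026383-4155344, plus strand), the transferase by which tissues other than liver use ketone bodies, was at 2.54, 1.53 and 2.81 FPKM in Wtap-HKO livers, against 0.957, 0.630 and 1.21 FPKM in Wtapflox/flox livers. It was the lowest of the 41 in Wtapflox/flox livers and next to the lowest, Hacl1, in Wtap-HKO livers, with as few as 33 reads in a library, and rose 2.46-fold between means with no overlap (1.13 ± 0.28, limma adjusted p = 0.0190, and 1.78 on the TPM scale). Leaving out Wtap-HKO replicates 1 or 3 or Wtapflox/flox replicate 2 ended the call, with limma adjusted p of 0.0586, 0.0694 and 0.0532. Of the Oxct1 exon bases, 12.6% also lie in exons of BC037032 on the other strand, and the strand setting is not known here. Summed macrophage markers were 686 to 863 FPKM in Wtap-HKO livers and 359 to 404 FPKM in Wtapflox/flox livers, and those of stellate cells and fibroblasts 69.3 to 196 FPKM and 34.5 to 44.9 FPKM. None of 9 adipocyte and muscle markers reached 0.2 FPKM on average, and Myh4, Lep, Adipoq and Ckm were listed at 0 in every library. The part of non-hepatocyte cells in the Oxct1 difference was not tested.

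**Figure D2:**
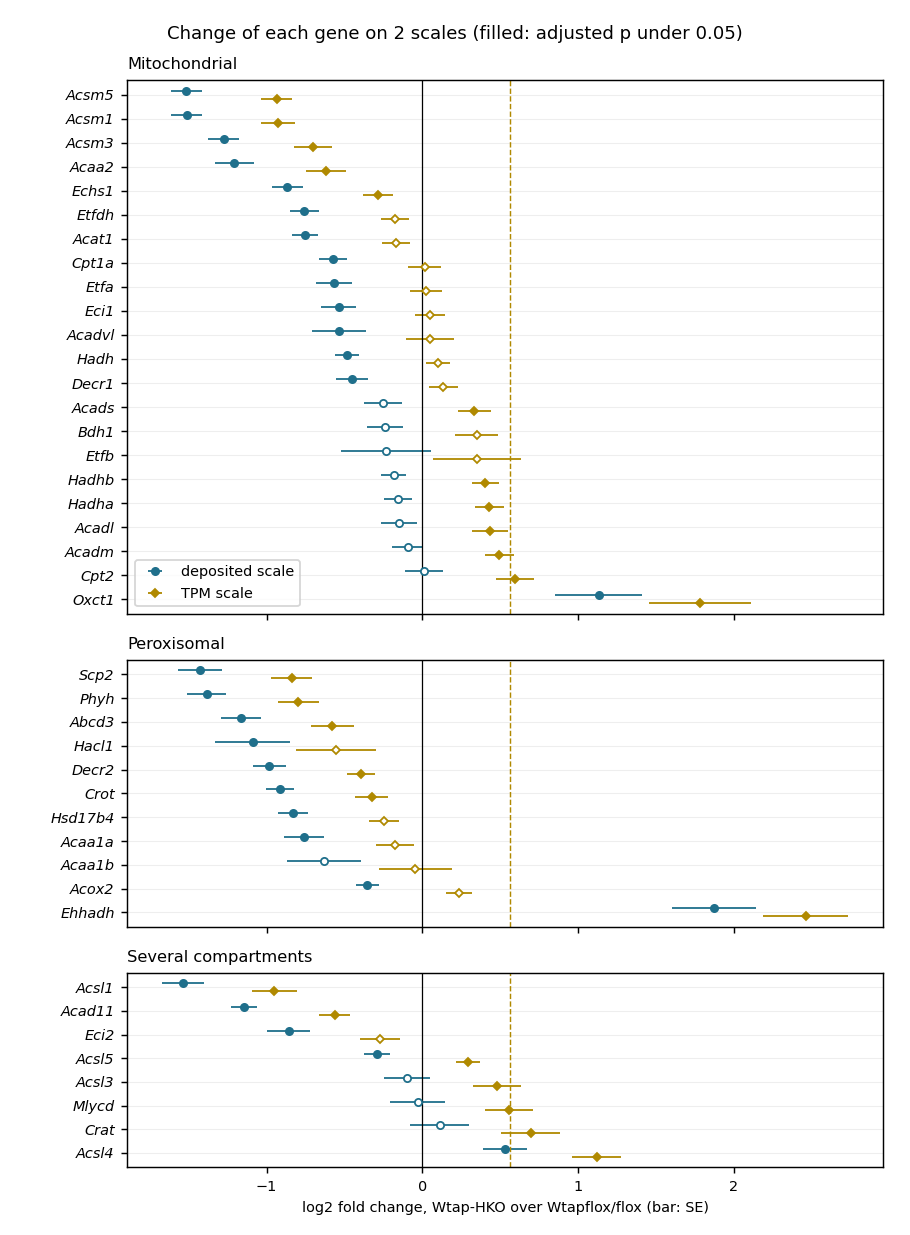
Log2 fold change of each gene, Wtap-HKO over Wtapflox/flox, with its SE on the deposited scale (circles, upper) and the TPM scale (diamonds, lower). Filled symbols have a limma adjusted p under 0.05, and the dashed line at 0.56 is the median of all genes on the TPM scale, near which Cpt2, Crat and Mlycd lie.

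Set side by side, peroxisomal genes had the lower median. Of the 11 peroxisomal genes 9 fell and 1 rose, with a median log2 fold change of -0.91, and of the 22 mitochondrial genes 13 fell and 1 rose, with a median of -0.51. On the TPM scale 5 peroxisomal genes were lower and 1 higher (median -0.33), and 5 mitochondrial genes were lower and 7 higher (median 0.077, so that the direction of the mitochondrial median turned). The 8 genes of several compartments had 4 lower and 1 higher (median -0.20), and on the TPM scale 2 lower and 5 higher (0.39). Over all genes tested 20.7% were lower and 19.5% higher as deposited (median 0.0054). On the TPM scale 6.02% of all genes were lower and 48.8% higher (median 0.56), so all 3 class medians lay below that of all genes there. The difference between the organelles was not tested, since genes are not replicates of a condition.

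Summed over genes, the mitochondrial class came to 1504 to 1668 FPKM in Wtap-HKO livers and 2498 to 2598 FPKM in Wtapflox/flox livers. The peroxisomal class came to 2209 to 2594 FPKM in Wtap-HKO livers and 3767 to 4208 FPKM in Wtapflox/flox livers. Ehhadh made up 26.9%, 31.6% and 33.5% of the peroxisomal sum in Wtap-HKO livers, against 3.45%, 5.84% and 6.69% in Wtapflox/flox livers. As a share of all FPKM in a library, which does not depend on the scaling, the peroxisomal class overlapped between groups with 0.710 to 0.821% in Wtap-HKO livers and 0.771 to 0.885% in Wtapflox/flox livers. Without Ehhadh it did not overlap, at 0.472 to 0.6001% in Wtap-HKO livers and 0.744 to 0.833% in Wtapflox/flox livers. Ehhadh was left out because it rose in these same data. The largest parts of the remaining 3637 to 3962 FPKM in Wtapflox/flox livers were Scp2 (1323 to 1506 FPKM) and Phyh (954 to 1079 FPKM). Both fell, and the share without them was not computed, so this sum does not show a fall across the class. The mitochondrial class overlapped, at 0.483 to 0.540% in Wtap-HKO livers and 0.511 to 0.546% in Wtapflox/flox livers.

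**Figure D3:**
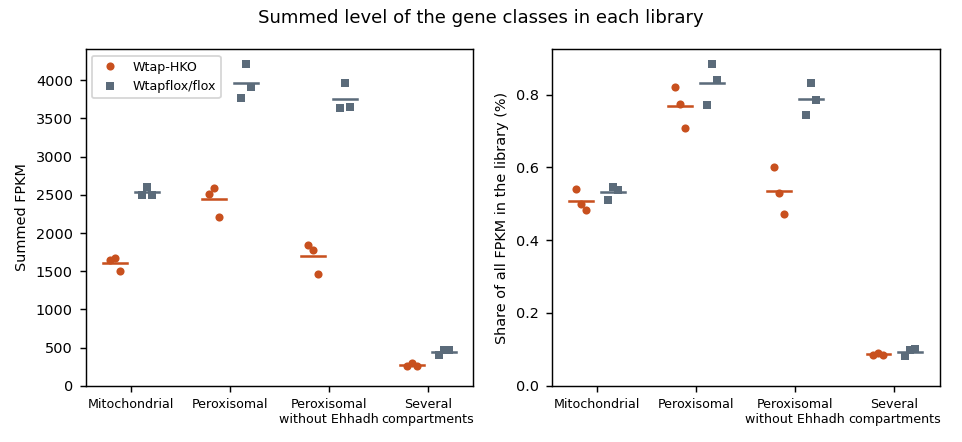
Summed FPKM of each class per library (left) and the same sums as a percentage of all FPKM in that library (right), with points for livers and bars for group means. On the left all classes lie lower in Wtap-HKO livers, and on the right the groups stay apart for the peroxisomal genes without Ehhadh alone. Scp2 and Phyh are the largest parts of that sum in Wtapflox/flox livers.

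Ratios of paired enzymes inside a library do not depend on the scaling between libraries. Of 17 such ratios, 11 did not overlap between groups, each at the smallest exact permutation p of 0.1 (two-sided, 0.155 after Benjamini-Hochberg adjustment over the 17). With 3 livers against 3 this test cannot go below 0.1. The values of 54.2% of all single genes tested did not overlap either. No such share was computed over other gene pairs, so the count of 11 is a description only. Ehhadh over Hsd17b4, the L- over the D-bifunctional enzyme, was 6.78, 8.04 and 8.48 in Wtap-HKO livers, against 0.786, 1.36 and 1.55 in Wtapflox/flox livers, a log2 difference of 2.71 and the largest of the 17. Ehhadh over Hadha, the bifunctional enzyme of peroxisomes over that of mitochondria, differed by 2.03. Acsl4, Acsl3 and Acsl5 each gained on Acsl1, by 2.07, 1.44 and 1.25 on the log2 scale.

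Other pairs of a peroxisomal or dual enzyme over a mitochondrial one went the opposite way to Ehhadh over Hadha. Crot over Cpt2 differed by -0.92, Decr2 over Decr1 by -0.53 and Eci2 over Eci1 by -0.32, all without overlap. Acadvl over Acadm differed by -0.44, and Oxct1 over Bdh1 by 1.54, or 0.99 with 1 FPKM added to each value. The smallest difference without overlap was Acsm3 over Acsm1, at 0.111, 0.106 and 0.119 in Wtap-HKO livers and 0.0941, 0.0929 and 0.101 in Wtapflox/flox livers (0.22). The 6 ratios that overlapped between groups were Hadhb over Hadha (-0.028), Acadl over Acadm (-0.058), Acads over Acadm (-0.16), Acsm5 over Acsm1 (-0.0086), Acaa1b over Acaa1a (0.13) and Etfb over Etfa (0.33).

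**Figure D4:**
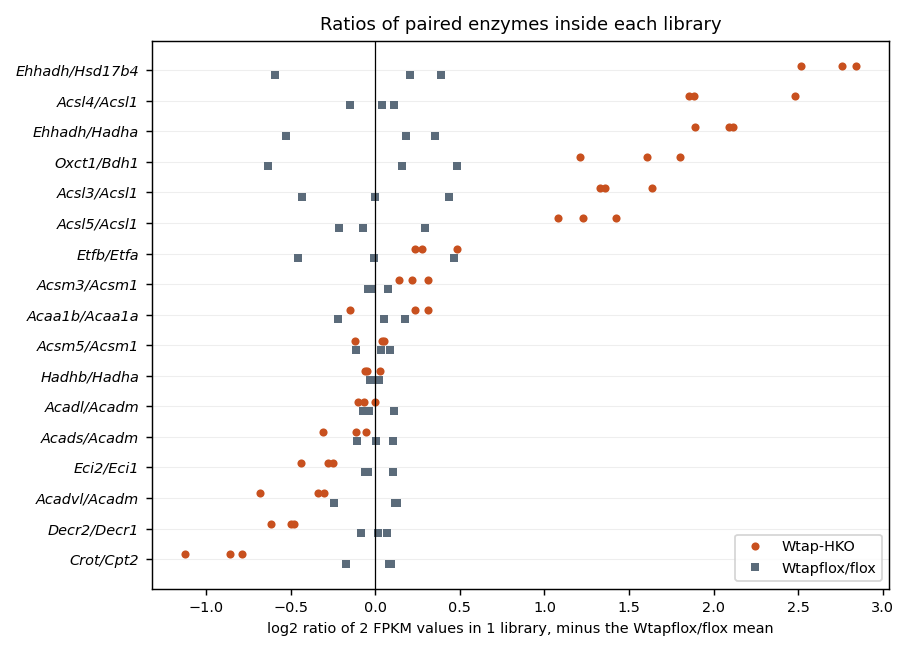
Log2 ratio of paired enzymes in each library, minus the Wtapflox/flox mean of that ratio, with Wtap-HKO (circles) above Wtapflox/flox (squares). Ehhadh over Hsd17b4 lies 2.71 to the right in Wtap-HKO livers on average and Crot over Cpt2 0.92 to the left, while Hadhb over Hadha overlaps.

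Promoters were compared because PPARA with its partner RXR binds a direct repeat of AGGTCA-like hexamers spaced by 1 base. RefSeq on GRCm38.p6 gave the 250 bases before the start site of 36 of the 41 genes. The repeat, searched as AGGNCA, any base, AGGNCA on both strands, occurred in 0 of the 36, against 0.333% of 27025 promoters of all genes. At so low a share most lists of 36 would hold none, so the 0 does not set these genes apart. The single hexamer, AGGTCA or its complement TGACCT, occurred in 6 of the 36 (16.7%: Acsm1, Cpt1a, Acadvl, Acadm, Echs1 and Scp2), against 13.8% of all promoters. Exact letters in so short a window say nothing about binding. The windows of Ehhadh (chr16:21787835-21788084, minus strand), of Phyh (chr2:4918746-4918995, plus strand) and of Cpt1a (chr19:3323051-3323300, plus strand) are shown as the gene that rose most, a peroxisomal gene that fell, and the mitochondrial gate, each 5′ to 3′ with that hexamer in capitals where it occurs.
Ehhadh: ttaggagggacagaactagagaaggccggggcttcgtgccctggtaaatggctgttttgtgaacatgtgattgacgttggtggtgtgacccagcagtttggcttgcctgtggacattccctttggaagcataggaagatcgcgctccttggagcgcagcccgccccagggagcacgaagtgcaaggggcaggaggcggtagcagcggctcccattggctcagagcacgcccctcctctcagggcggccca
Phyh: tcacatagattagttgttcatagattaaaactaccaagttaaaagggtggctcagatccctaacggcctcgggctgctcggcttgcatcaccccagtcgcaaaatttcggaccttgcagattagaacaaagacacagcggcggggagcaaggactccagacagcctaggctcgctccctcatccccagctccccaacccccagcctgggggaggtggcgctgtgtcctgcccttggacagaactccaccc
Cpt1a: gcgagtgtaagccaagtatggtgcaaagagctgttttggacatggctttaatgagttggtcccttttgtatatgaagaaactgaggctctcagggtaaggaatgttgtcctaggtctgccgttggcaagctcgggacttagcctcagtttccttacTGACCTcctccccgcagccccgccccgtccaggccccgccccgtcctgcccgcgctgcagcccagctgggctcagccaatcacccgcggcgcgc
Of these windows only that of Cpt1a holds the hexamer; those of Ehhadh and Phyh, which changed in opposite directions, both lack it.

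Other genes of the pathway were also more often lower than higher as deposited. Of 44 further oxidation and ketone genes 22 fell and 2 rose as deposited (median log2 fold change -0.43), while the TPM scale gave 10 lower and 13 higher. Over all genes tested, 20.7% were lower and 19.5% higher as deposited, and 6.02% lower and 48.8% higher on the TPM scale. Nudt7, a peroxisomal hydrolase of coenzyme A esters, was at 24.0, 21.7 and 13.8 FPKM in Wtap-HKO livers, against 111, 83.9 and 73.7 FPKM in Wtapflox/flox livers. It fell most of this list (-2.18 ± 0.24, limma adjusted p = 8.87e-04, and -1.60 on the TPM scale). Slc27a2, an acyl-CoA synthetase that also takes up fatty acids, gave -1.52 ± 0.10 (limma adjusted p = 2.01e-04, and -0.94 on the TPM scale), and Fabp1, the liver fatty acid binding protein, gave -1.57 ± 0.39 (limma adjusted p = 0.0191). The Fabp1 call was lost on the TPM scale (limma adjusted p = 0.0586) and when Wtap-HKO replicate 3 or Wtapflox/flox replicates 1 or 2 were left out (limma adjusted p up to 0.0620).

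Of 22 regulators of fatty acid oxidation 11 fell and 2 rose as deposited (median -0.30), while the TPM scale gave 4 lower and 9 higher. The shares over all genes tested were 20.7% lower and 19.5% higher as deposited, and 6.02% and 48.8% on the TPM scale. Ppara was at 29.0, 23.8 and 25.3 FPKM in Wtap-HKO livers, against 72.7, 75.0 and 83.7 FPKM in Wtapflox/flox livers. It fell on both scales without overlap (-1.56 ± 0.11, limma adjusted p = 2.39e-04, and -0.98). Lpin1, a phosphatidate phosphatase that also acts as a coactivator, and Klf15, a transcription factor of fasting metabolism, gave -2.52 ± 0.40 and -1.40 ± 0.11 (limma adjusted p = 0.00338 and 3.24e-04), and -1.95 and -0.81 on the TPM scale.

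Other targets of PPARA, some of which stand in the lists above too, were called in both directions: 6 of 24 rose and 7 fell as deposited, and 10 were higher and 4 lower on the TPM scale. The shares as deposited lie near the 20.7% lower and 19.5% higher over all genes tested. On the TPM scale 6.02% of all genes tested were lower and 48.8% higher. Pdk4, the kinase that shuts pyruvate dehydrogenase, was at 39.6, 79.3 and 83.4 FPKM in Wtap-HKO livers, against 1.95, 3.10 and 3.75 FPKM in Wtapflox/flox livers (4.40 ± 0.34, limma adjusted p = 3.05e-04, and 5.04 on the TPM scale). Acot2, a mitochondrial acyl-CoA thioesterase, and Aqp7, a glycerol channel, rose by 3.70 ± 0.51 and 3.30 ± 0.28 on the log2 scale (limma adjusted p = 0.00208 and 3.88e-04, and 4.33 and 4.48 on the TPM scale). Cyp4a12a fell most of this list (-3.11 ± 0.53, limma adjusted p = 0.00458, and -2.54 on the TPM scale). Ehhadh, itself a PPARA target, rose while Ppara fell, but the list as a whole had no common direction. Aqp7 averaged 2.74 FPKM in Wtap-HKO livers and 0.0933 FPKM in Wtapflox/flox livers, so its fold depends on the pseudocount. Of 29 genes of peroxisome assembly and housekeeping 17 fell and 1 rose (median -0.49), with 7 lower and 8 higher by TPM. The shares over all genes tested beside these counts are again 20.7% and 19.5% as deposited, and 6.02% and 48.8% by TPM. Uox, the urate oxidase, Pxmp2, a membrane channel, and Cat, the catalase, fell most (-1.97 ± 0.13, -1.50 ± 0.11 and -1.49 ± 0.14, with limma adjusted p of 2.18e-04, 2.95e-04 and 5.04e-04), and were lower on the TPM scale too (-1.39, -0.91 and -0.91).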

How the data were processed

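Per the labels and the study's methods, the authors sequenced liver RNA of 3 independent mice per group, used TopHat2 for alignment of read pairs (GRCm38.p6) and HTSeq 0.6.1 for counting, and deposited the result as FPKM. How the FPKM were made, the strand setting and the annotation release: not given in the sources used here. FPKM times gene length gave whole reads for 100% of values (tolerance 0.01). Log2(FPKM + 0.2) of the 16547 genes averaging 0.2 FPKM or more was tested with limma 3.58.1 in R 4.3.3 (eBayes with trend, two-sided, Benjamini-Hochberg), and genes were called at an adjusted p under 0.05. Such fold changes understate the change of low genes. Ratios were tested by exact permutation. In the 16 alternatives, pseudocount, filter, scaling, trend, replicate block, biotype, limma voom on rebuilt reads and each library were varied one at a time.

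Between libraries of one group, chi-square over degrees of freedom was 19.7 to 37.1, above sampling noise, so each was 1 replicate. Groups came from the labels. Members and lists were chosen with earlier results of these data known. Values per library are given for genes called higher, the 8 called lower with the lowest fold change, the most abundant of each class, 9 genes set by name (Cpt1a, Acadm, Acadl, Hadha, Acaa1a, Acaa1b, Bdh1, Oxct1 and Acat1) and genes called in opposite directions on the 2 scales. For each context list, the 3 called genes that changed most, among those averaging 1 FPKM or more, are named, with Ppara. Cyp4a12a is named as well, as the PPARA target that fell most. Exon overlaps and repeated 100-base windows were computed on GENCODE M21 transcripts, in which 37 of the 41 genes had the position of the deposited table. The scale comparison, the calls by level and the tests were run on Python 3.11.15 and R. Some genes of the pathway are not reported here.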

Additional observations from a re-analysis of the deposited data

How the results depend on the processing

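Of the alternatives, the TPM scale changed most. The other scaling tried, by the median of gene ratios between libraries, left all 41 calls as deposited. It hardly moved the values (Acsl1 at -1.53687, against -1.53704 as deposited), so it is no separate check of the deposited scaling. The limma voom run used the library sizes behind the deposited FPKM, so it did not vary the scaling either. On the TPM scale 12 of the 41 genes were called lower (26 as deposited) and 13 higher (3 as deposited), 5 mitochondrial genes were lower (13 as deposited) and 5 peroxisomal genes were lower (9 as deposited). The mitochondrial median turned to 0.077, against -0.51 as deposited, and the peroxisomal median moved to -0.33, against -0.91. The median of all genes tested moved to 0.56, against 0.0054. The log2 fold change reversed on the TPM scale for Acsl3 (0.48), Acsl5 (0.29), Cpt1a (0.016), Mlycd (0.56), Acadvl (0.052), Acadl (0.44), Acadm (0.49), Acads (0.33), Etfa (0.022), Hadha (0.43), Hadhb (0.40), Hadh (0.10), Eci1 (0.049), Decr1 (0.13) and Acox2 (0.23), by the construction of that scale, which moved the median of all genes by about as much. Bdh1 (0.35) and Etfb (0.35), called on neither scale, changed sign as well. With 1 library left out, 24 to 26 genes were lower and 1 to 3 higher, with 1 higher, Ehhadh, without Wtapflox/flox replicate 2 or without Wtap-HKO replicate 3. Of the 41 calls, 15 held under all 16 alternatives, 21 changed on the TPM scale alone, and Acsl4, Acsl5, Acadvl, Acaa1b and Oxct1 changed elsewhere. Same-numbered libraries did not deviate together (correlations of 0.015, 0.043 and 0.064), so a replicate block is a number only: with it 27 genes were lower, Acaa1b being the added one. Without the low-value filter or without the trend, Acadvl was not called, and without the trend Acsl5 was not either. All 17 ratios moved by no more than the larger of the 2 group SDs under every alternative run, and Oxct1 over Bdh1 (0.99 with 1 FPKM added, against 1.54) moved by more than the Wtap-HKO SD of 0.30. Counting Acad11 and Eci2 as peroxisomal and Acsl1 and Crat as mitochondrial left the medians at -0.91 and -0.51. At least 1000 reads lay behind 35 of the 41 genes in every library, and Oxct1 had the fewest, 33.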
